A study of Mus musculus with 8 samples.

Results

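Dermal fat is the layer of adipocytes that lies in and under the dermis, and 10 genes known from adipocytes were followed here on arrays of mouse back skin: Pparg, Lpl, Fabp4, Plin1, Cidec, Lipe, Adipoq, Lep, Cfd and Ucp1. Members were chosen by name, as the probe sets whose single gene symbol in the array's annotation is one of the 10. Of the 10 genes, 9 had a probe set, 1 each, among the 22206 probe sets tested. Cfd had no probe set of that symbol and was not analysed.

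Skin came from male C3H mice in 4 groups with 2 arrays each. Mice were 7 weeks old, were acclimatized for 7 days, were assigned to groups of 8, had the hair of the back trimmed and removed with depilatory cream, and were then treated on the skin once a day for 20 days. The groups received Milli-Q water (control), 1% minoxidil (a drug used against hair loss), 1% tieghemelin or 1% maslinic acid (a plant triterpene). The label of minoxidil array 2 gives 2% in its source name and 1% in its description. The control titles name those arrays as the control for tieghemelin and maslinic acid, and minoxidil was set against the same 2 arrays. The labels do not tie an array to a single mouse, so every p-value measures the spread between arrays, which may be technical.

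As background, adipocytes arise when the nuclear receptor PPARγ and the C/EBP transcription factors switch on genes for taking up, storing and releasing lipid. Lipoprotein lipase frees fatty acids from blood lipoproteins, FABP4 carries them inside the cell, perilipin 1 and CIDEC coat and enlarge the lipid droplet, and hormone-sensitive lipase (Lipe) releases fatty acids again. Mature adipocytes secrete adiponectin, leptin and the complement protease adipsin (Cfd), while Ucp1 is the uncoupling protein of brown and beige fat. In mouse skin the fat layer thickens while hair follicles grow and thins while they rest, and a sheet of skeletal muscle, the panniculus carnosus, lies directly beneath it.

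Promoter windows show what letters these genes share ahead of their starts, and those of 4 members are printed. RefSeq windows on GRCm38.p6 matched 8 of the 10 genes by symbol. The 250 bases before each start are given 5′ to 3′, with capitals marking TTNNGNAA (letters of C/EBP sites, where N is any base) or AGGTCA (the core letters of nuclear receptor sites) on either strand.
Lep (chr6:29059971-29060220, plus strand): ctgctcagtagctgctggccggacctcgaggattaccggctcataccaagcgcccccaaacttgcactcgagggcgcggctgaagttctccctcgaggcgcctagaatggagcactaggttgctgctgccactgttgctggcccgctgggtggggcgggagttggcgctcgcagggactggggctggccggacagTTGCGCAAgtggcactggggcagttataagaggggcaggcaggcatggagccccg
Plin1 (chr7:79732777-79733026, minus strand): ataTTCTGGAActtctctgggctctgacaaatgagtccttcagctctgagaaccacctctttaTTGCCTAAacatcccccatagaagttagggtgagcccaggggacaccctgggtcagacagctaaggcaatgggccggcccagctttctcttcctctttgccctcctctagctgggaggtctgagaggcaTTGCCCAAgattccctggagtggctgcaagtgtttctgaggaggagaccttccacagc
Ucp1 (chr8:83290098-83290347, plus strand): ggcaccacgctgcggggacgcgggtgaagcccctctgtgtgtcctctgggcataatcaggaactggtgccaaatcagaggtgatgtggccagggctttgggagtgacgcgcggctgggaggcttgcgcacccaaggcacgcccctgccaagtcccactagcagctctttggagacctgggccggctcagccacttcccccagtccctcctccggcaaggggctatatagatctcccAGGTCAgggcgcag
Adipoq (chr16:23146286-23146535, plus strand): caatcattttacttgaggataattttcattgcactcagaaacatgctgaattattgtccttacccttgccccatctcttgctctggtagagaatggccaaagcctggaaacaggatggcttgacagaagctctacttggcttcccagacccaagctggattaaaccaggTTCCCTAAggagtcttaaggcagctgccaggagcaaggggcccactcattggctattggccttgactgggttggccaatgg
At bases 55 to 48 before the Lep start stands TTGCGCAA, a form of TTNNGNAA that lies in 0.164% of the 32851 windows of that length in the table. TTNNGNAA itself lay in 36.8% of all windows and in 6 of the 12 windows of the members, and AGGTCA lay in 14.0% of all windows and in 3 of the 12. Plin1 held TTNNGNAA 3 times, Adipoq held it once, and Ucp1 held AGGTCA once. A match is a description of the letters and not a bound site.

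Values are log2 signals as deposited, and each was set beside the array's background, the median of 23 antigenomic probe sets that match no mouse sequence. Background was 7.75 and 7.61 on control arrays 1 and 2, 7.51 and 7.33 on the minoxidil arrays, 7.02 and 6.97 on the tieghemelin arrays, and 6.96 and 7.08 on the maslinic acid arrays. It was thus highest in the control group, and its part in differences of the members was not tested. Control array 1 stood apart from the rest: its values correlated at 0.518 to 0.538 with those of the other 7 arrays, which correlated at 0.901 to 0.966 among themselves. Of the 9 members, 5 read highest of all 8 arrays on control array 1, as did 29.9% of all probe sets. Comparisons are therefore given with and without that array. Skin markers were present, among them Krt5 at 9.27 to 13.72 and Krt10 at 8.48 to 11.49, while Lor was above background on 0 of 8 arrays. In whole skin, fewer adipocytes and less of a transcript per adipocyte cannot be told apart.

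Lpl, Fabp4, Adipoq and Lep lay above background on all 8 arrays, which is 4 of 9 members against 38.4% of all probe sets. Cidec lay above it on 7 arrays, Plin1 and Ucp1 on 4, Lipe on 1 and Pparg on 0. Of the probe sets for adipocyte genes, then, several carried little signal in this skin, and levels of different genes are not compared since each probe set has its own brightness.

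**Figure D1:**
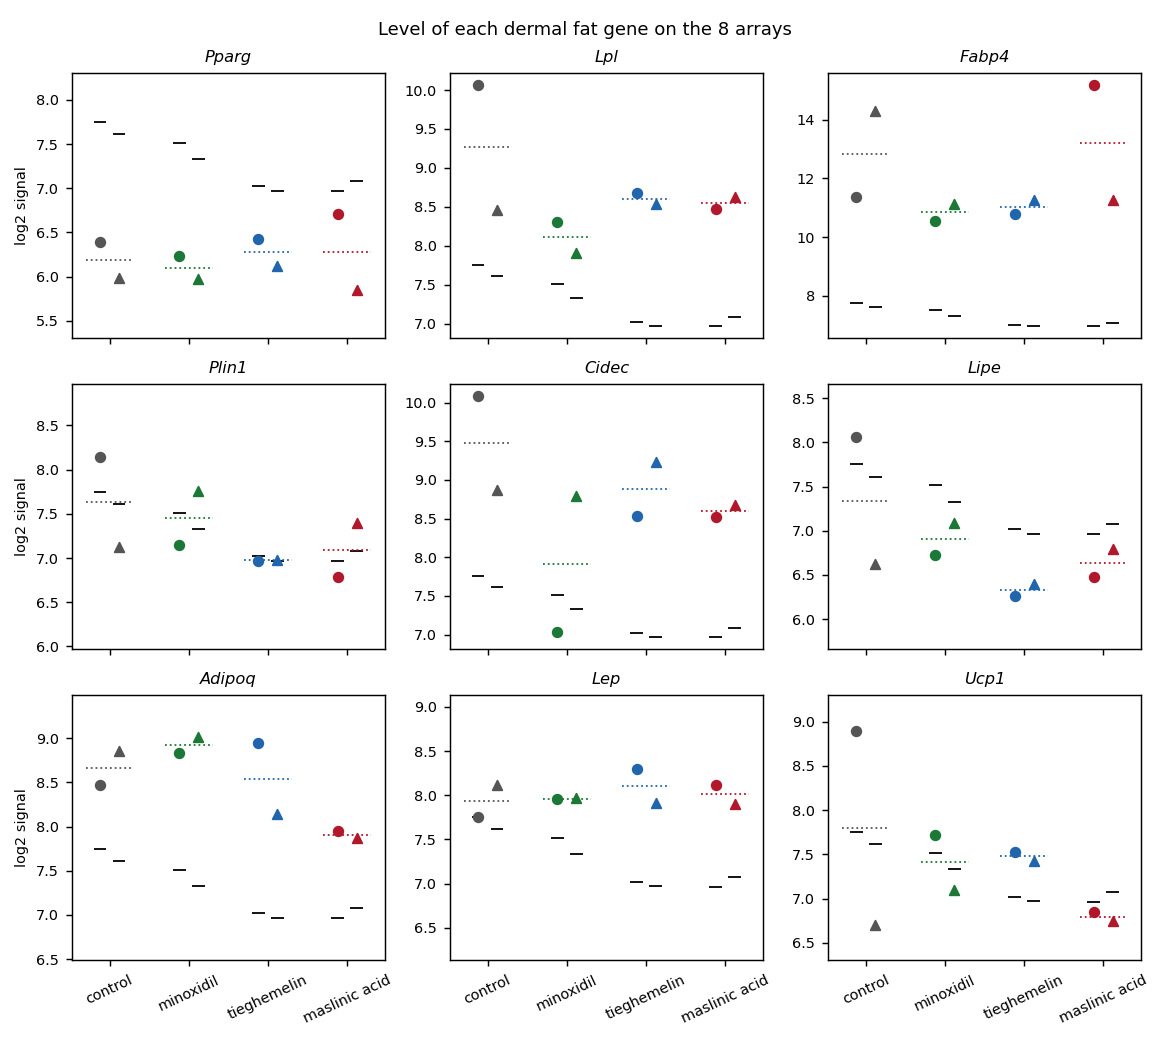
Level of each of the 9 measured dermal fat genes (log2 signal, y axis) on the 2 arrays of each group (x axis); circles are array 1, triangles array 2, dotted lines the group mean and short black lines the background median of each array. Fabp4 reads 14.29 on control array 2 and 15.17 on maslinic acid array 1 and 10.56 to 11.37 on the other 6, while Pparg lies under the background on all 8.

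Pparg, the regulator at the head of the adipocyte programme, read 6.40 and 5.98 in control, 6.23 and 5.97 in minoxidil, 6.43 and 6.12 in tieghemelin and 6.71 and 5.85 in maslinic acid skin. All of these values are under the background of their array, so no fold is given for Pparg. The maslinic acid arrays held both its highest and its lowest reading.

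Lpl, the enzyme that frees fatty acids at the capillary wall, read 10.06 and 8.47 on control arrays 1 and 2. It read 8.31 and 7.91 in minoxidil, 8.67 and 8.54 in tieghemelin and 8.47 and 8.63 in maslinic acid skin. Control array 1 alone was high; the other 7 arrays spanned 0.77 log2, and at least that range was seen in 77.3% of all probe sets. The 2 minoxidil arrays were the lowest and lay under every array of the other groups.

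Fabp4, the fatty acid carrier of adipocytes, which capillary endothelium and macrophages also make, varied most of the 9. It read 11.37 and 14.29 on control arrays 1 and 2, and 15.17 and 11.25 on maslinic acid arrays 1 and 2. On the minoxidil arrays it read 10.56 and 11.14, and on the tieghemelin arrays 10.79 and 11.27. Thus by log2 reading 1 array of the control group and 1 of the maslinic acid group were high, and the other 6 lay within a narrow span. Values on control array 1 were less spread than on the other arrays (SD over probe sets 1.32 against 1.62 to 1.69). By rank within its array, Fabp4 stood at percentile 98.9 and 99.0 on control arrays 1 and 2 and 99.3 on maslinic acid array 1. On the minoxidil and tieghemelin arrays and maslinic acid array 2 it stood at 93.8 to 96.5. Over the 7 arrays other than control array 1 its range was 4.61 log2, a range that only 0.113% of probe sets reached. The group means were 12.83 ± 2.06 in control, 10.85 ± 0.41 in minoxidil, 11.03 ± 0.34 in tieghemelin and 13.21 ± 2.77 in maslinic acid skin (SD, n = 2 arrays each).

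Plin1, the coat protein of the adipocyte lipid droplet, read 8.15 and 7.13 in control, 7.15 and 7.76 in minoxidil, 6.97 and 6.98 in tieghemelin and 6.79 and 7.39 in maslinic acid skin. In each group 1 of the 2 arrays was above background, so these levels sit at the limit of what the probe set shows. Cidec, which fuses droplets into larger ones, read 10.08 and 8.87 in control, 7.04 and 8.79 in minoxidil, 8.54 and 9.23 in tieghemelin and 8.53 and 8.67 in maslinic acid skin. Minoxidil array 1 was the low one, under its background, and control array 1 the high one. Over the 7 arrays other than control array 1, Cidec ranged over 2.19 log2, and 2.86% of probe sets ranged at least as far.

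Lipe, hormone-sensitive lipase, read 8.06 and 6.62 in control, 6.73 and 7.09 in minoxidil, 6.26 and 6.40 in tieghemelin and 6.48 and 6.79 in maslinic acid skin. Its reading passed the background on control array 1 alone.

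Adipoq, the gene of the adipocyte hormone adiponectin, read 8.47 and 8.85 in control, 8.84 and 9.01 in minoxidil, 8.95 and 8.14 in tieghemelin and 7.95 and 7.87 in maslinic acid skin. Both maslinic acid arrays lay under all 6 other arrays. Group means were 8.66 ± 0.27, 8.92 ± 0.12, 8.54 ± 0.57 and 7.91 ± 0.06 in that order (SD, n = 2 arrays each) and the tieghemelin arrays were the most spread of the 4 groups.

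Lep, the gene of the satiety hormone leptin, read 7.75 and 8.12 in control, 7.95 and 7.97 in minoxidil, 8.30 and 7.91 in tieghemelin and 8.11 and 7.91 in maslinic acid skin. It was the most even member: over the 7 arrays other than control array 1 it ranged over 0.40 log2, and 97.9% of probe sets ranged at least as far. Control array 1 gave its lowest reading, where 5 other members had their highest.

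Ucp1, the uncoupling protein, read 8.90 and 6.71 in control, 7.72 and 7.10 in minoxidil, 7.53 and 7.43 in tieghemelin and 6.85 and 6.74 in maslinic acid skin. It passed the background on control array 1, minoxidil array 1 and both tieghemelin arrays, and on neither maslinic acid array.

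Members did not share 1 pattern over the arrays. Over the 36 pairs of members, Pearson's r across the 7 arrays other than control array 1 had a median of -0.09, and 17 pairs were positive. The pair most alike was Plin1 with Lipe (r 0.90), both near or under background, and the pair most opposed was Lpl with Lipe (r -0.80). With control array 1 the median was 0.15 and 21 pairs were positive. Of the 7 arrays, Pparg and Lipe passed background on 0 and Plin1 and Ucp1 on 3, so pairs with them carry little signal. Among the other members r over the 7 arrays ran from -0.48 (Lpl with Adipoq) to 0.38 (Adipoq with Lep). These values describe 7 or 8 arrays that share their processing, and no test was made of them.

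Between the 2 maslinic acid arrays Fabp4 had the largest gap of the 9 members. It was 3.92 log2 higher on array 1 than on array 2, a 15.1-fold gap that 0.0225% of probe sets, 5 in all, reached or passed. The other 4 were Mylpf (6.72), Myh4 (5.09), Myl1 (4.61) and Tnnt3 (4.06), all genes of the fast skeletal muscle fibre. Adipoq differed by 0.08, Lep by 0.21, Ucp1 by 0.11, Lpl by -0.15, Cidec by -0.15, Lipe by -0.31 and Plin1 by -0.60 (array 1 minus array 2). Pparg differed by 0.86, under background on both arrays, and 8.77% of probe sets had at least that gap. The median size of the gap was 0.21 over the 9 members and 0.18 without Fabp4, beside 0.31 over all probe sets. Gaps of at least 1.7-fold were seen in 2 of 9 members and in 12.1% of all probe sets.

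**Figure D2:**
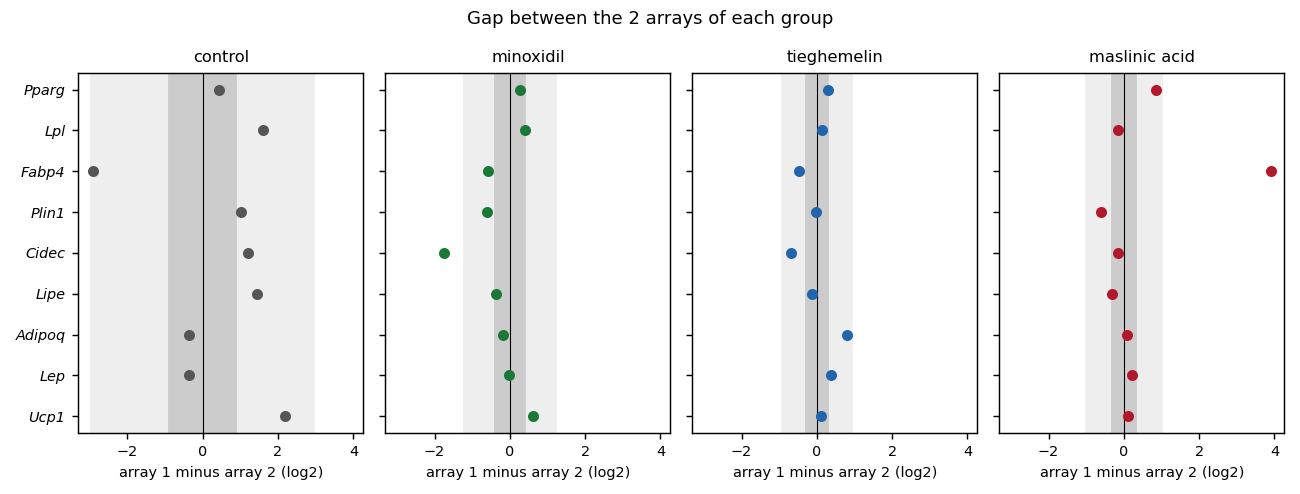
Gap between the 2 arrays of each group (array 1 minus array 2, log2, x axis) for the 9 dermal fat genes (y axis); the dark band spans the median size of the gap over all probe sets and the light band its 95th percentile. In the maslinic acid panel Fabp4 stands at 3.92 and Adipoq at 0.08, and in the control panel both bands are wider than in the other 3.

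The largest gap was that of Fabp4 in control skin too, but that of Cidec in minoxidil and of Adipoq in tieghemelin skin. Between the control arrays Fabp4 differed by -2.92, being lower on array 1, and 5.27% of probe sets had at least that gap; 6 of 9 members and 55.9% of probe sets differed by 1.7-fold or more. The minoxidil arrays differed by 1.7-fold or more in 1 member, Cidec (-1.75, a size that 0.815% of probe sets reached), against 20.0% of probe sets. Between the tieghemelin arrays that member was Adipoq (0.81, a size that 8.31% of probe sets reached), against 9.83% of probe sets. Fabp4 differed by -0.58 between the minoxidil arrays and by -0.48 between the tieghemelin arrays.

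Skeletal muscle markers moved with Fabp4 between the maslinic acid arrays. All 15 were higher on array 1, each by at least 1.7-fold, with a median gap of 1.85. Their mean level was 11.69 on maslinic acid array 1 and 9.15 on array 2, 12.04 and 13.91 on the control arrays, 10.87 and 10.35 on the minoxidil arrays and 8.99 and 8.59 on the tieghemelin arrays. All 15 markers were above background on 5 of the 8 arrays, maslinic acid array 2 included, and 13 to 14 were on minoxidil array 2 and the tieghemelin arrays. Control array 2 and maslinic acid array 1, where Fabp4 read highest, were thus high in muscle markers. So was control array 1, where Fabp4 read 11.37. By rank it stood at percentile 98.9 of that array's probe sets, beside 99.0 on control array 2. The part of muscle in the Fabp4 gap was not tested.

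Other fat genes did not share that gap as a group. Of 105 measured genes on 11 lists of fat genes, 49 were higher on maslinic acid array 1, the median gap was -0.03, and 15 differed by at least 1.7-fold, 12 of them higher on array 1. Car3, a carbonic anhydrase of muscle and fat, read 11.96 and 9.39, Cd36, a fatty acid transporter, 9.11 and 7.09, and Gpihbp1, the capillary anchor of lipoprotein lipase, 9.06 and 8.11. The other mature adipocyte markers, 10 genes, had a median gap of 0.04, with Car3 the only one past 1.7-fold. Preadipocyte and adipose progenitor markers (9 genes) had a median of -0.20 and lipid droplet proteins other than the members (12 genes) of 0.07.

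Of the markers of other skin cells, those of dermal fibroblasts had a median gap of 0.55 over 9 genes, with Col1a2 (9.92 and 8.22) and Dcn (10.17 and 8.83) past 1.7-fold. Endothelial markers had a median of 0.20 and macrophage markers of 0.0035 (9 genes each), and 0 of 9 and 1 of 9 passed 1.7-fold. Epidermal keratinocyte markers had a median of 0.0033 over 9 genes, with Krt15 (8.87 and 7.32), Krt5 (11.40 and 10.18) and Itga6 (8.54 and 9.59, the lower on array 1) past 1.7-fold. Sebocyte markers had a median of -0.12, and 2 of 9 passed 1.7-fold, Mgst1 (9.56 and 8.44) and Gal (a gap of 0.92, under background on array 2). Markers of the growing hair follicle, the phase in which dermal fat is thick, had a median of 0.17 over 15 genes; 9 were higher on array 1, and Krt71, an inner root sheath keratin, was the only one past 1.7-fold (11.01 and 8.89). The part of the hair cycle in the gap was not tested.

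**Figure D3:**
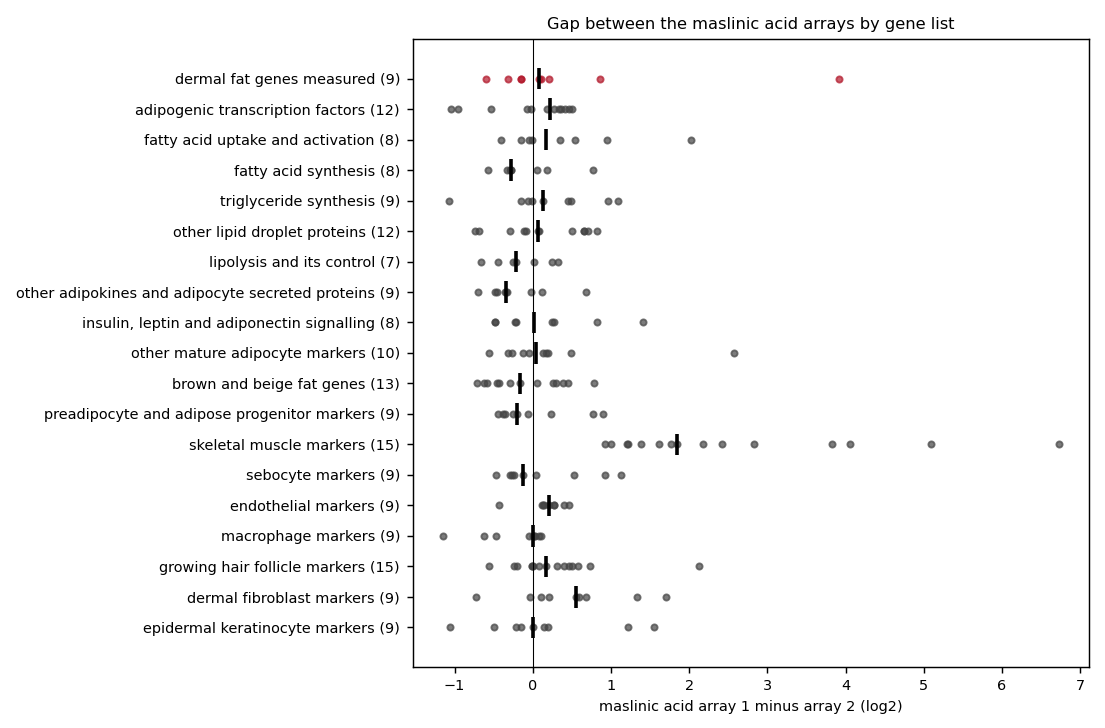
Gap between the 2 maslinic acid arrays (array 1 minus array 2, log2, x axis) for every gene of each list (y axis, number of genes in brackets); thick black lines are medians and the 9 dermal fat genes are in red. All 15 skeletal muscle markers lie to the right of 0 with a median of 1.85, while the dermal fat genes have a median of 0.08 with Fabp4 at 3.92.

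Genes most like the members were sought by Pearson's r over the 7 arrays other than control array 1, among 8912 probe sets above the median level. The reference was the mean of the 7 members above background on at least 4 arrays, and since Fabp4 varied most, that mean followed Fabp4 (r 0.89). Most alike were Pik3ip1 (0.99), Ifngr1 (0.97), Enox2 (0.96), Rpl6 (0.96), Ankrd23 (0.96) and Sppl3 (0.95). With control array 1 added, r was -0.05 for Pik3ip1, -0.40 for Ifngr1, -0.32 for Enox2, 0.98 for Rpl6, 0.61 for Ankrd23 and 0.01 for Sppl3, so this likeness, Rpl6 aside, rests on leaving out that array.

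Against Fabp4 alone, a search chosen after its values were seen, Postn, a matrix protein of fibroblasts, was most alike, with r 0.99 over 7 arrays and 0.97 over 8. Postn read 8.89 and 11.10 in control, 9.17 and 9.15 in minoxidil, 9.24 and 9.26 in tieghemelin and 11.63 and 9.11 in maslinic acid skin. By log2 reading it was high on the same 2 arrays as Fabp4 and on those only. Selenop, which carries selenium in plasma, followed (0.98 over 7 arrays and 0.88 over 8), reading 10.61 on control array 2 and 10.76 on maslinic acid array 1 and 7.97 to 9.28 on the other 6.

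**Figure D4:**
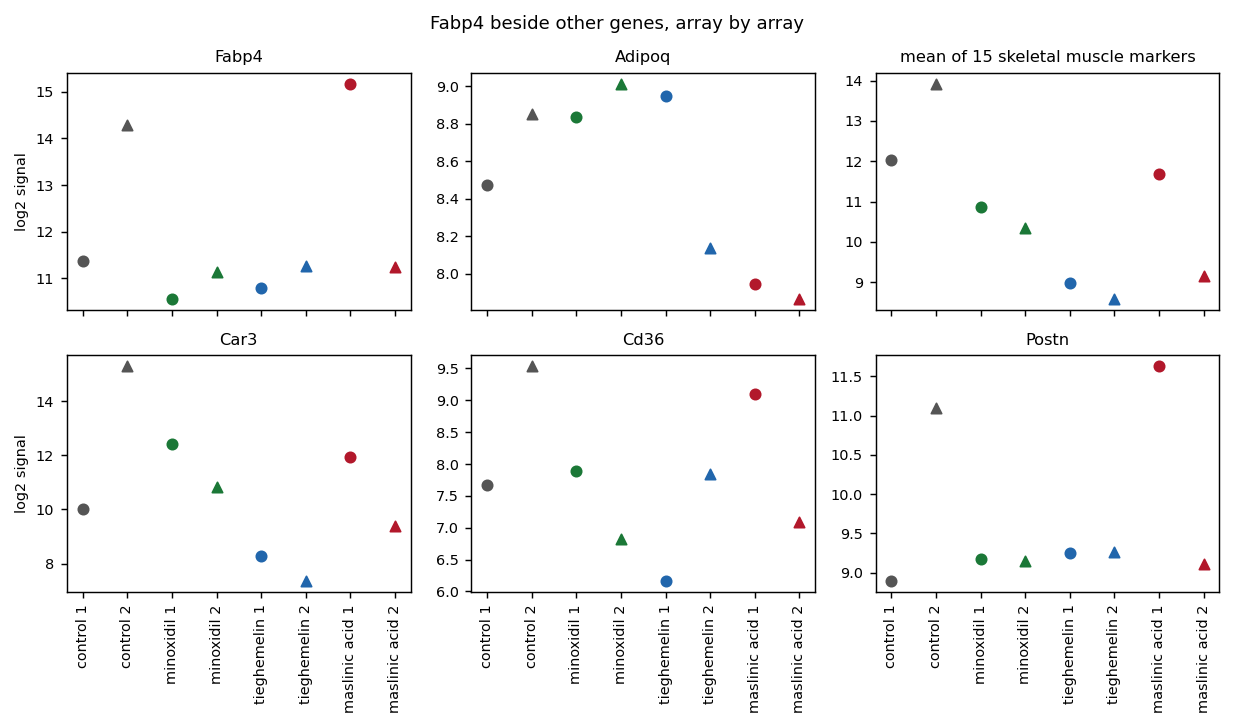
Log2 signal (y axis) on each of the 8 arrays (x axis; circles array 1, triangles array 2) for Fabp4, Adipoq, the mean of 15 skeletal muscle markers, Car3, Cd36 and Postn. Fabp4 and Postn read highest on control array 2 and maslinic acid array 1, while Adipoq is lowest on the 2 maslinic acid arrays (7.95 and 7.87).

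Each treatment was then compared with water by limma over all probe sets, a gene being called at the study's thresholds of an unadjusted p of at most 0.05 and a difference of at least 1.7-fold. The 3 comparisons share the 2 control arrays, so their values are not independent of one another. At an adjusted p under 0.05, 0 of 9 members and 0% of all probe sets were called in each of the 3 with all 8 arrays.

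Against control, Cidec was the member called in minoxidil skin with all 8 arrays. The size and the call of the Fabp4 difference hung on which control array was kept. With all 8 arrays 1 of 9 members was called, beside 11.3% of all probe sets. Cidec fell by 1.56 log2 (SE 0.65, 95% confidence interval -3.05 to -0.07, limma adjusted p = 0.442). Its 2 minoxidil arrays lay under both control arrays, but minoxidil array 1 was under background. Without control array 1 the Cidec difference was -0.96 (adjusted p = 0.549), and without minoxidil array 1 it was -0.69, and neither was called. The call was also lost when any 1 of the 4 tieghemelin and maslinic acid arrays, which add only to the estimate of the spread, was left out. Fabp4 differed by -1.98 (SE 1.27, limma adjusted p = 0.503) with all arrays. Its difference was -3.44, and called, without control array 1, which leaves control array 2 (14.29) as the group. Without control array 2, which leaves control array 1 (11.37), it was -0.52. Lpl differed by -1.16 (interval -2.37 to 0.06, adjusted p = 0.443) with no overlap between the groups' arrays, and by -0.36 without control array 1. The arrays of minoxidil and control did not overlap for 3 of 9 members and for 36.2% of probe sets.

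Tieghemelin against control gave 0 of 9 members called with all arrays, beside 11.7% of all probe sets. Fabp4 differed by -1.79 (SE 1.27, limma adjusted p = 0.535) with all arrays. Its difference was -3.25, and called, without control array 1, which leaves control array 2 as the group. It was -0.34 without control array 2. Lipe read under background on both tieghemelin arrays (6.26 and 6.40) and on control array 2 (6.62), so no fold is given. The limma adjusted p of its difference was 0.447. Without control array 1 no array of either group showed Lipe above background. Ucp1 differed by -0.33 with all arrays, and without control array 1 the remaining control array was under its background, so no fold is given. The arrays did not overlap for 3 of 9 members and for 40.7% of probe sets.

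Maslinic acid against control also gave 0 of 9 members called with all arrays, beside 10.8% of all probe sets. Adipoq differed by -0.76 (SE 0.40, interval -1.67 to 0.16, limma adjusted p = 0.487) with no overlap between arrays. Without control array 1, which leaves control array 2 as the group, its difference was -0.95 and was called. Taken over the background of each array, Adipoq stood at 0.72 and 1.24 in control and at 0.98 and 0.79 in maslinic acid skin, which overlap. The part of background in this difference was not tested. Fabp4, with its divided arrays, differed by 0.38 (interval -2.55 to 3.31, adjusted p = 0.905). Ucp1 and Lipe had lower means in maslinic acid than in control skin, with both maslinic acid arrays under background. Control array 2 was under its background for each too, so no fold is given and both differences rest on control array 1. The arrays did not overlap for 2 of 9 members and for 38.7% of probe sets.

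Over the 9 members, readings under background included, the median log2 difference was -0.39 for minoxidil, -0.59 for tieghemelin and -0.71 for maslinic acid against control, beside 0.06, 0.05 and 0.05 over all probe sets. Without control array 1 the members' medians were 0.07, -0.01 and -0.04, so those shifts rest on that array.

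**Figure D5:**
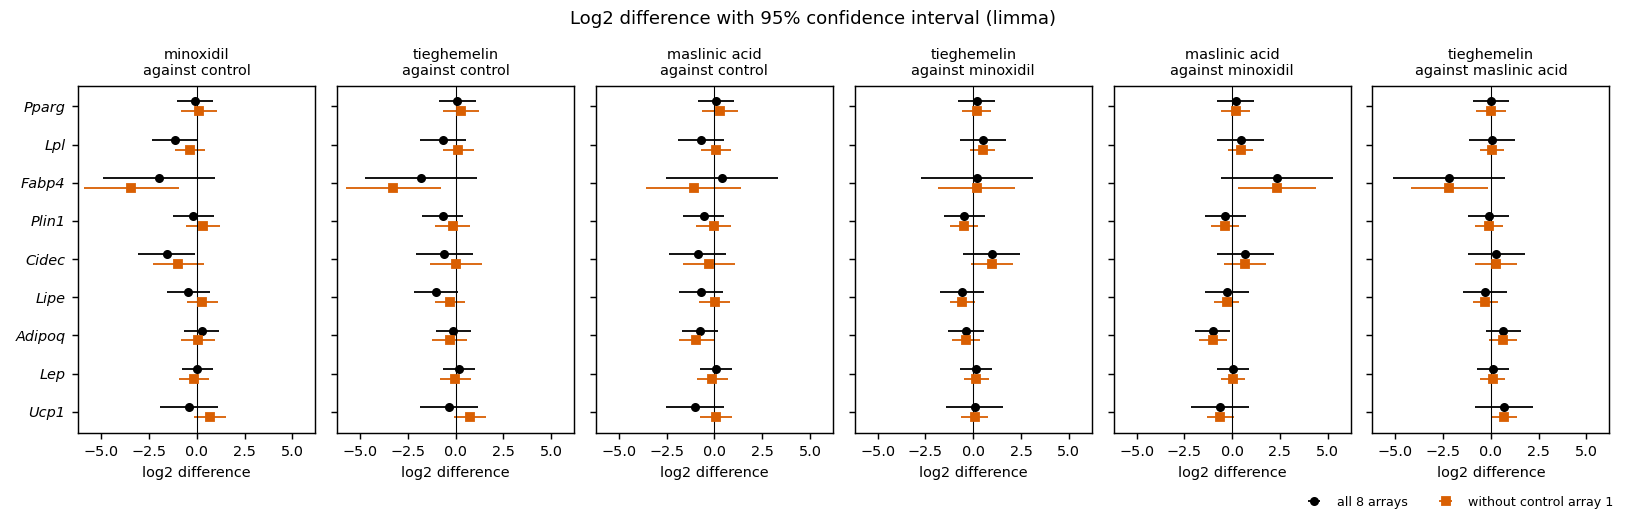
Log2 difference of each dermal fat gene (y axis) in the 6 comparisons, with its 95% confidence interval from limma (x axis); black circles use all 8 arrays and orange squares leave out control array 1, and for members under background (Pparg throughout) the points show readings and give no fold. With all 8 arrays the interval leaves out 0 for Cidec in minoxidil against control and for Adipoq in maslinic acid against minoxidil, and for Fabp4 it spans several log2 units throughout.

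Between treatments, Adipoq was the member called: it fell by 1.02 log2, a 2.02-fold difference, in maslinic acid against minoxidil skin (SE 0.40, interval -1.93 to -0.10, adjusted p = 1.00). That was 1 of 9 members called, beside 3.6% of all probe sets, and without control array 1 it was called again (adjusted p = 0.256), as were 11.1% of probe sets. The call was lost when any 1 of the 4 arrays of these 2 groups was left out, with differences of -1.10 to -0.93. Fabp4 differed by 2.36 in the same comparison (interval -0.57 to 5.29, adjusted p = 1.00) and was called once control array 1 was left out. Its difference was 0.40 without maslinic acid array 1 and 4.32 without maslinic acid array 2. Arrays did not overlap for 4 of 9 members and for 43.6% of probe sets.

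Tieghemelin against minoxidil gave 0 of 9 members called, beside 3.3% of all probe sets. Cidec had the largest difference, 0.97 (interval -0.52 to 2.46, adjusted p = 1.00), with overlapping arrays, and Lep differed by 0.15 (interval -0.67 to 0.97). Arrays did not overlap for 3 of 9 members and for 43.8% of probe sets. Tieghemelin against maslinic acid gave 0 of 9 members called, beside 0.306% of all probe sets. Fabp4 differed by -2.18 (interval -5.11 to 0.75, adjusted p = 1.00) with overlapping arrays, and by -0.22 without maslinic acid array 1. Without control array 1 it was called (adjusted p = 1.00), as were 1.56% of probe sets. Adipoq was 0.64 higher in tieghemelin skin (interval -0.28 to 1.55, adjusted p = 1.00) and Ucp1 at least 1.37-fold higher, and neither was called. Arrays did not overlap for 3 of 9 members and for 30.6% of probe sets. With 2 arrays against 2, a permutation test could give no p under 0.333.

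With all 8 arrays, the total of calls against control among the wider set of fat genes was near the share of all probe sets. By direction it was not: most fat genes called were lower, while among all probe sets higher calls were the more frequent. Of the 105 genes on 11 lists, minoxidil against control called 10 (1 higher, 9 lower), which is 9.52% beside 11.3% of all probe sets, tieghemelin against control 9 (2 higher, 7 lower), 8.57% beside 11.7%, and maslinic acid against control 9 (1 higher, 8 lower), 8.57% beside 10.8%. Of all probe sets, the higher calls were 6.98%, 7.02% and 6.39% and the lower calls 4.29%, 4.73% and 4.45% in that order. Lpin1, a phosphatidate phosphatase of triglyceride synthesis, and Adipor1, an adiponectin receptor, were called lower in all 3. Lpin1 differed by -1.77, -2.20 and -2.08 and Adipor1 by -1.77, -1.46 and -1.70 in the order minoxidil, tieghemelin, maslinic acid, with adjusted p from 0.410 to 0.448 and the same controls. Slc2a4, the insulin-responsive glucose transporter of fat and muscle, was called lower with minoxidil and, by 1.18, with maslinic acid. Both minoxidil arrays (6.07 and 7.16) and maslinic acid array 1 (6.88) were under background, so no fold is given for minoxidil. Without control array 1, Lpin1 was called for tieghemelin (-1.03) and maslinic acid (-0.91) alone, and Adipor1 for minoxidil (-1.04) alone.

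Without control array 1 the counts were 9, 19 and 12 of 105, which is 8.57%, 18.1% and 11.4% beside 12.9%, 13.7% and 12.8% of all probe sets. Car3 then had the largest differences of the mature adipocyte markers, -3.67, -7.47 and -4.62. They are set against control array 2 alone, where Car3 read 15.29, while it read 10.04 on control array 1. Of the 15 muscle markers, all were lower than control in each treatment, with 8, 13 and 9 called on all 8 arrays, beside 4.29%, 4.73% and 4.45% of all probe sets called lower. Without control array 1, 14, 14 and 14 were called, beside 6.38%, 7.12% and 6.57%. The part of muscle in the Car3 and Fabp4 differences was not tested. Between treatments, tieghemelin and maslinic acid against minoxidil each called 3 of 105 fat genes, 2.86% beside 3.3% and 3.6% of all probe sets. Adig, a small adipocyte protein, was 1.22 higher in tieghemelin and 1.31 higher in maslinic acid than in minoxidil skin. Thrsp, a lipogenic nuclear protein, read lower in both, and each of these was called at the study's thresholds with adjusted p of 1.00. Thrsp was above background on 1 of the 8 arrays, minoxidil array 1 (8.08), and on no tieghemelin or maslinic acid array, so no fold is given. Car3 was also called lower in tieghemelin than in minoxidil skin (-3.81), and Dgat2, of triglyceride synthesis, lower in maslinic acid than in minoxidil skin (-0.99). Tieghemelin against maslinic acid called 0 of 105, beside 0.306% of all probe sets.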

How the data were processed

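RNA of 8 skin samples, 9.4 µg each per the labels' protocols, was hybridised to Clariom S Mouse arrays. The deposited values are log2 signals per probe set; per the series' design text the authors normalised the scans in Transcriptome Analysis Console 4.0.1, and the submitters' processing notes also name RMA and Affymetrix Expression Console. RMA evens out total signal between arrays, so a change shared by most genes would not show in such values. A genome build is not given in the sources used here. That the scale is log2 was taken from the range of the values.

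Testing took in 22206 probe sets with their values as deposited, neither rescaled nor filtered, and 6640 control probe sets took no part. Genes were named from the platform annotation, in which 19572 of these probe sets have 1 symbol, 0 have several and 2634 have none. Groups came from the labels. A linear model with limma 3.58.1 in R 4.3.3 used all 8 arrays, with eBayes and Benjamini-Hochberg adjustment over the probe sets of each of 6 comparisons; its code was tested on simulated data. Calls follow the study's thresholds (at least 1.7-fold, p of at most 0.05). The number of arrays limits the precision.

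The members, the 18 lists of other genes (180 of 196 genes measured) and the tests were chosen with earlier results of these data known. From each list at most 4 genes with the largest difference or maslinic acid gap are named, and genes alike are the first 6 by r. A member with no array of a group above background is given as a bound. Its dim arrays are set at the higher of their value and the background, and the fold is the bright group's mean over that. No fold is given where the brighter group also had an array under its background. Genes other than members with a group wholly under background get no fold either. This background was no detection call. Alternatives were a replicate block, a filter on dim probe sets, quantile normalization, a median shift, eBayes with trend and robust settings, a fit on the 2 groups alone, and each array left out in turn, which leaves a group with 1 array that is assumed to vary like the other groups. Promoter windows are from RefSeq on GRCm38.p6.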

Additional observations from a re-analysis of the deposited data

How the results depend on the processing

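With 2 arrays a group, 1 array can set a member's direction, and the dim members (Pparg, Lipe, Plin1, Ucp1) carry little signal over background. Under settings other than leaving an array out, both the direction and the call of a difference held in 294 fits. The direction also held in 4 fits that newly passed the thresholds and in 2 that no longer passed them. It reversed in 3. Lep in minoxidil against control became -0.033 with quantile normalization and -0.042 with the median shift. Fabp4 in maslinic acid against control became -0.70 with quantile normalization. The cause was not tested.

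Called members in minoxidil against control were 2 (Fabp4 and Cidec) with quantile normalization (beside 11% of probe sets), 0 with the dim filter, under which 4 members were tested (11.4%), and 0 with the 2 groups alone (3.08%); the members' median was -1.36 with the dim filter. Tieghemelin against control called 1 member (Fabp4) with quantile normalization (12.1%). Maslinic acid against minoxidil called 2 (Fabp4 and Adipoq) with quantile normalization (3.23%) or the 2 groups alone (10.6%), and the median was 0.56 with the dim filter. The replicate numbers did not pair the arrays (correlations of their deviations ran from -0.17 to 0.09). With the replicate block the counts were the same as without it. They were 1, 0 and 0 for minoxidil, tieghemelin and maslinic acid against control (beside 11%, 11.6% and 10.4% of probe sets). They were 0 and 1 for tieghemelin and maslinic acid against minoxidil (2.86% and 2.9%) and 0 for tieghemelin against maslinic acid (0.23%). A block with the tieghemelin numbers crossed, chosen after the data were seen, called 0 in tieghemelin against maslinic acid (0.234%).

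Leaving out 1 array at a time, called members ranged from 0 to 4 in minoxidil against control, 0 to 4 in tieghemelin against control, 0 to 5 in maslinic acid against control, 0 to 1 in tieghemelin against minoxidil, 0 to 2 in maslinic acid against minoxidil and 0 to 1 in tieghemelin against maslinic acid. The highest counts against control came without control array 2, which leaves control array 1 alone: Lpl, Cidec, Lipe and Ucp1 were called for minoxidil, Lpl, Plin1, Lipe and Ucp1 for tieghemelin, and Lpl, Plin1, Cidec, Lipe and Ucp1 for maslinic acid, beside 47.3%, 47.5% and 47.3% of all probe sets. The Cidec call in minoxidil was lost without control array 1, without minoxidil array 1 and without either tieghemelin or maslinic acid array. Members' medians ranged from -0.69 to 0.070, -1.17 to -0.0079 and -1.06 to -0.038 against control, and from -0.19 to 0.15 in maslinic acid against minoxidil.

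Single members whose direction turned without 1 array are given by comparison, as differences between the deposited readings. Those of Pparg throughout, and of Lipe, Plin1 and Ucp1 wherever all arrays of a group were under background (as in control without control array 1), give no fold. In minoxidil against control, Lep ranged from -0.16 to 0.21, Lipe from -1.15 to 0.28, Plin1 from -0.69 to 0.33, Pparg from -0.30 to 0.12 and Ucp1 from -1.49 to 0.70. In tieghemelin against control, Adipoq ranged from -0.52 to 0.28, Cidec from -1.20 to 0.013, Lep from -0.020 to 0.37, Lpl from -1.46 to 0.14, Pparg from -0.12 to 0.30 and Ucp1 from -1.42 to 0.77. In maslinic acid against control, Fabp4 ranged from -1.58 to 2.34, Lep from -0.11 to 0.26, Lipe from -1.42 to 0.010, Lpl from -1.51 to 0.084, Pparg from -0.34 to 0.52 and Ucp1 from -2.10 to 0.089. In tieghemelin against minoxidil, Adipoq ranged from -0.78 to 0.024, Fabp4 from -0.11 to 0.47, Lep from -0.045 to 0.34 and Ucp1 from -0.25 to 0.38. In maslinic acid against minoxidil, Cidec ranged from -0.19 to 1.56, Lep from -0.054 to 0.15 and Pparg from -0.25 to 0.61. In tieghemelin against maslinic acid, Cidec ranged from -0.063 to 0.63, Lep from -0.094 to 0.29, Lpl from -0.019 to 0.13, Plin1 from -0.42 to 0.19 and Pparg from -0.43 to 0.43. The Fabp4 gap between the maslinic acid arrays was 3.55 with quantile normalization.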
